A study of Mus musculus with 6 samples.

Results

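Prl2c2 and Prl2c3 are 2 proliferin genes, near-identical copies on mouse chromosome 13, and they are 2 of the 25416 genes in the expression table of this study. They were taken by name from the table, where both had already been seen to be much higher after knockdown of Setdb1. Their levels in this comparison are therefore a description and carry no test. The cells were AML12, a mouse hepatocyte line from a donor animal transgenic for human TGF alpha. In the control group (siNC, 3 libraries) they had received scrambled RNA. The siSetdb1 group (3 libraries) had received siRNA against Setdb1, a methyltransferase gene for lysine 9 of histone H3. In both groups polyadenylated RNA was collected after 72 h, and reads of 50 bases were sequenced from a single end. Levels are FPKM, the reads of a gene scaled by its exon length and by the reads of the library. The labels give the amount of RNA as 50 nm for both groups. Separate cultures are not named for the replicates, so that a p-value here weighs a difference against library spread alone, which may be technical.

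The libraries held 16790582 to 17835060 reads. Setdb1 itself, the targeted gene, was lower in each siSetdb1 library (3.29 to 4.29 FPKM) than in each siNC library (8.41 to 9.43 FPKM). siNC replicate 1 stood apart from the other siNC libraries, at -26.7 on the leading principal component against -11.7 and -10.8. Values without it are given beside the results they change. Tested genes reached 0.5 FPKM in at least 3 libraries, and they were compared with limma on log2(FPKM + 1), and a gene was called when its Benjamini-Hochberg adjusted p was under 0.05. By this rule 15.1% of 12846 tested genes were called, 6.87% higher and 8.27% lower in siSetdb1 (883 and 1062 genes). Without siNC replicate 1 these counts were 1101 higher and 1075 lower, and with median-ratio scaling 997 and 847. Which direction held more calls thus depended on the setting.

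Proliferins are secreted glycoprotein hormones of the prolactin and growth hormone family, which in rodents has expanded into a cluster of placental genes. They are made mainly by trophoblast giant cells and promote the migration of endothelial cells and the growth of blood vessels, and they were first found as transcripts that growing cultured fibroblasts make after serum is added. Proliferin binds the cation-independent mannose 6-phosphate receptor, encoded by Igf2r, and its gene is known to respond to growth factors through AP-1, the dimer of FOS and JUN proteins.

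Prl2c3 (ENSMUSG00000056457) lies on chromosome 13 at 12790816 to 12800079 and Prl2c2 (ENSMUSG00000079092) at 12996125 to 13005383 of mm10, both on the minus strand. Another copy, Prl2c5 (ENSMUSG00000055360), lies at 13182715 to 13191923 on the plus strand. Each has 5 exons in its full-length transcript, and no other annotated gene overlaps any of the 3 loci. The coding sequences of Prl2c3 and Prl2c2, 675 bases each, differed at 3 bases (99.6% identity). Prl2c5 differed from Prl2c3 at 21 of 669 aligned bases, beside a gap of 6 bases (96.9% identity).

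What a 50-base read can see of these copies is shown by 2 coding stretches of that length, centred on positions at which Prl2c3 and Prl2c2 differ (counted from the A of the start codon). Each stretch joins exons across an intron, and capitals mark every base that is not the same in all 3 copies. The first, at coding bases 176 to 225, holds the substitution A200C from Prl2c3 to Prl2c2:
Prl2c3: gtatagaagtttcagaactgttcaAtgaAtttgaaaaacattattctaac
Prl2c2: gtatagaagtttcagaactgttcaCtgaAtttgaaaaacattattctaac
Prl2c5: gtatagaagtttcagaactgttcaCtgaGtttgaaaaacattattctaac
The second, at coding bases 295 to 344, holds G319T:
Prl2c3: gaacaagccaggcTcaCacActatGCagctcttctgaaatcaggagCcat
Prl2c2: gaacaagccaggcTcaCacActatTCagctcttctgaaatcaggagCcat
Prl2c5: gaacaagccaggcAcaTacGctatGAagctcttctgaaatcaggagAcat
A read that covers no differing base matches Prl2c2 and Prl2c3 equally well.

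Of the 1138 different 50-base windows in the annotated transcripts of Prl2c2, 814 (71.5%) also occur in Prl2c3, where they make up 60.0% of 1357 windows. Only 190 windows of Prl2c2 and 543 of Prl2c3 occur in no other annotated transcript. Prl2c5 is easier to tell apart, with 763 of 1176 windows (64.9%) its own, 253 shared with Prl2c2 and 140 with Prl2c3. How the submitters assigned reads that match several copies is not given in the sources used here. The split between Prl2c2 and Prl2c3 is therefore uncertain, and their sum is given beside each.

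**Figure D1:**
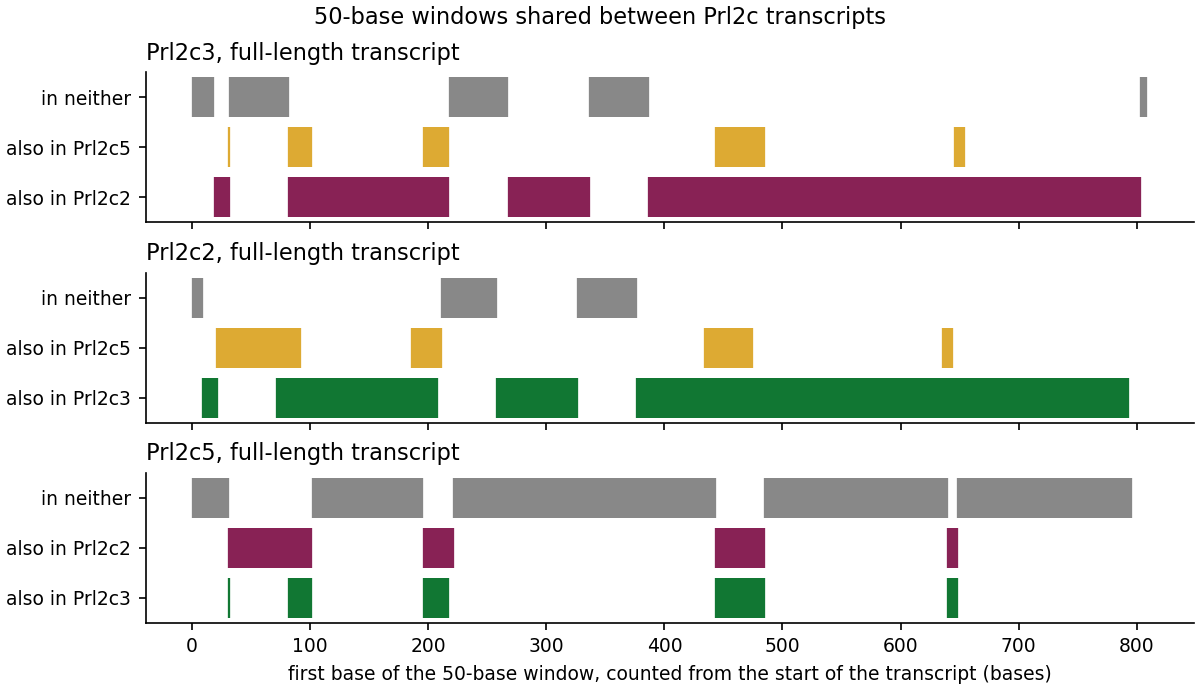
For the full-length transcripts of Prl2c3, Prl2c2 and Prl2c5 (1 panel each), a mark at each position on the x axis (bases from the transcript start) shows in which other copy the 50-base window starting there also occurs; grey marks windows found in neither of the other 2. Most of the length of Prl2c3 and Prl2c2 is shared between them, while most windows of Prl2c5 are its own.

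Transcripts of both genes were scarce in siNC and moderate in siSetdb1. Prl2c3 had 0.131, 0.0845 and 0.385 FPKM in siNC replicates 1 to 3 and 3.23, 3.32 and 4.86 FPKM in siSetdb1 replicates 1 to 3. The lowest siSetdb1 library thus lay far above the highest siNC library. These values rest on 3, 2 and 9 reads in siNC against 76, 77 and 118 reads in siSetdb1. Prl2c2 had 0.164, 0.316 and 0.534 FPKM in siNC and 2.55, 3.55 and 2.98 FPKM in siSetdb1, from 3, 6 and 10 reads against 48, 66 and 58 reads. Here too the groups did not overlap. Of all tested genes, 17.6% were higher in every siSetdb1 library than in every siNC library, and since both genes were chosen for this difference nothing is read from it.

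The mean of Prl2c3 was 0.200 ± 0.162 FPKM in siNC and 3.81 ± 0.92 FPKM in siSetdb1 (SD, n = 3 each), a ratio of 19.0. That of Prl2c2 was 0.338 ± 0.186 and 3.03 ± 0.50 FPKM, a ratio of 8.95. After adding 1 and taking log2, a step that shrinks differences between values this low, the differences were 1.99 (SE 0.16) for Prl2c3 and 1.59 (SE 0.14) for Prl2c2. Without siNC replicate 1 they were 1.95 and 1.5. Prl2c3 passed the filter on low values only through the siSetdb1 libraries, and Prl2c2 passed it in those and in siNC replicate 3.

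Summed over both copies, the level was 0.295, 0.401 and 0.919 FPKM in siNC and 5.78, 6.86 and 7.85 FPKM in siSetdb1. This sum of FPKM depends in part on how reads were divided between the copies, since each copy is scaled by its own exon length. The sum of reads does not depend on that division. In reads the sum was 6, 8 and 19 against 124, 143 and 176. Any shared reads that were left out of the counts, or listed under Prl2c5, would be missing from both sums. siNC replicate 3 was the highest control library for each copy and for the sum, yet its 19 reads (exact 95% Poisson interval 11.4 to 29.7) were well under the 124 reads (103.1 to 147.8) of the lowest siSetdb1 library. Pooled within groups, 33 reads of 51370630 stood against 443 of 52182986, a ratio of rates of 13.2 with an exact 95% interval of 9.27 to 19.4. By copy the ratio was 19.1 (11.2 to 35.3) for Prl2c3 and 8.91 (5.54 to 15.2) for Prl2c2. These intervals cover counting error only. Whether more cells carried the transcripts or each cell carried more cannot be told apart in bulk RNA.

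**Figure D2:**
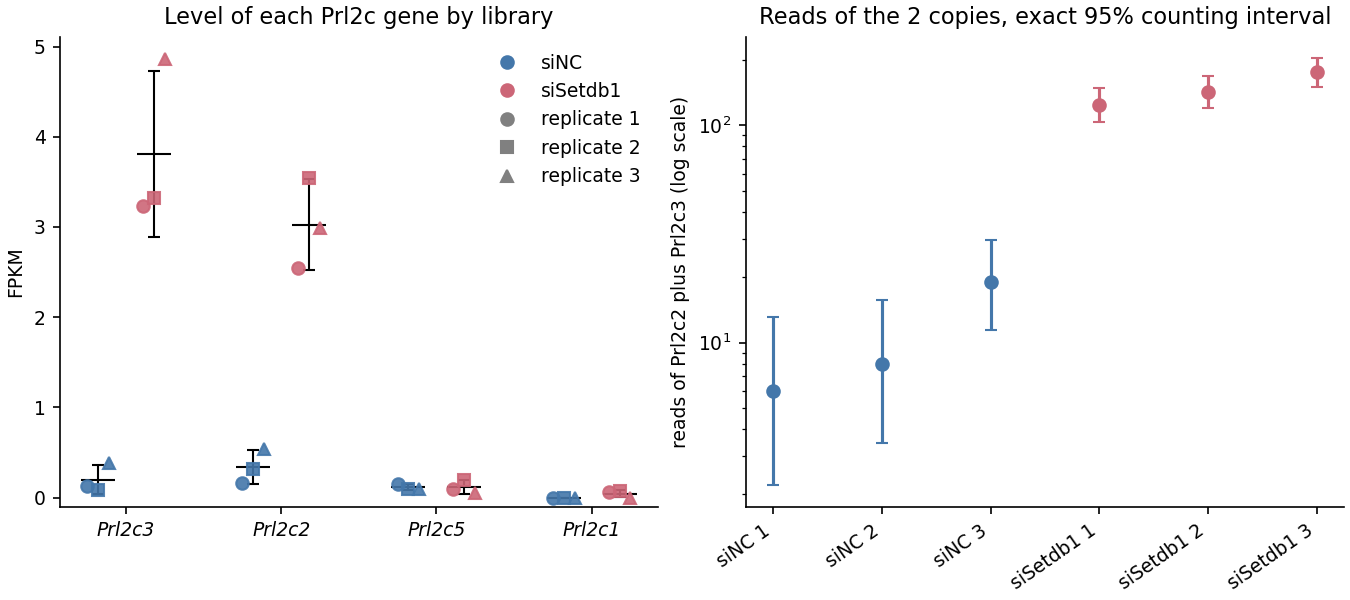
Left, FPKM (y axis) of the 4 Prl2c genes in each library, with siNC in blue, siSetdb1 in red, the replicate by marker shape, and the mean ± SD of 3 libraries in black. Right, reads of Prl2c2 plus Prl2c3 per library on a log axis with exact 95% Poisson intervals; the siSetdb1 libraries hold 124 to 176 reads and the siNC libraries 6 to 19, while Prl2c5 and Prl2c1 stay under 0.2 FPKM in both groups.

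The spread between libraries was larger, in relative terms, where reads were few. The coefficient of variation of the sum was 62.0% in siNC and 15.1% in siSetdb1. The mean of Prl2c3 stood above 42.2% of all 25416 genes in siNC and above 67.6% in siSetdb1, and that of Prl2c2 above 46.8% and 65.1%. Every one of these genes is above 0 in at least 1 library, so the ranks leave out genes without any read. Both thus moved from the lower to the upper part of the table without becoming abundant. By FPKM, Prl2c3 was above Prl2c2 in siSetdb1 replicates 1 and 3 and below it in replicate 2 and in all siNC libraries. FPKM scales by the whole exon length of each copy. Of the 50-base windows, 40.0% in Prl2c3 and 16.7% in Prl2c2 occur in no other annotated transcript. The order of the copies may therefore depend on how shared reads were assigned.

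The share of the 2 genes' reads listed under Prl2c3 was 61.3%, 53.8% and 67.0% in siSetdb1 replicates 1 to 3, with exact binomial 95% intervals (Clopper-Pearson) of 52.1 to 69.9, 45.3 to 62.2 and 59.6 to 73.9. In siNC it was 50%, 25% and 47.4%, from so few reads that the intervals ran from 3.19 to 88.2. Pooled, it was 42.4% (25.5 to 60.8) of 33 reads in siNC and 61.2% (56.5 to 65.7) of 443 reads in siSetdb1. The difference between the groups in this share was not tested.

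The closest relative, Prl2c5, was low in both groups. It had 0.152, 0.0976 and 0.0989 FPKM in siNC and 0.0984, 0.199 and 0.0476 FPKM in siSetdb1, from 3, 2 and 2 reads against 2, 4 and 1 reads. The ranges of the groups overlapped. With 7 reads in each group the ratio of rates was 0.984, with an exact 95% interval of 0.295 to 3.29. An exact two-sided permutation test over the libraries gave p = 0.9 for Prl2c5, where 0.1 is the smallest p that 3 against 3 allows. Its difference from the members was not tested, since they were chosen by their values.

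Prl2c1, a more distant copy at 27849342 to 27857788, had 0 reads in each siNC library and 1, 1 and 0 reads in siSetdb1. All of these are under the 3 reads that a count of 0 allows, so no fold is given. The wider family was close to silent. Of 28 genes of the prolactin and growth hormone family looked for, 10 are in the table, and the 8 beside Prl2c2 and Prl2c3 were under 0.5 FPKM in every library and were not tested. The placental genes Prl7a1 and Prl7a2 were seen only in siNC replicate 3, with 6 and 2 reads. Prl8a9 had 1, 0 and 0 reads in siNC and 4, 1 and 1 in siSetdb1. Prl7d1, which encodes the antiangiogenic proliferin-related protein, had at most 2 reads in any library, and Prl5a1 and Gh, the growth hormone gene, had at most 1. The other 18 genes of the list, Prl and Prl3d1 among them, are not analysed here.

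The stretches upstream of Prl2c3 and Prl2c5 are shown because these copies, one high in siSetdb1 and the other not, differ there at few places. RefSeq gives 250 bases upstream of the start site in GRCm38.p6, at chr13:12800080-12800329 on the minus strand for Prl2c3 and at chr13:13182466-13182715 on the plus strand for Prl2c5. Capitals mark the 7 bases that in Prl2c3 spell the AP-1 letters TGANTCA, and the bases aligned to them in Prl2c5:
Prl2c3: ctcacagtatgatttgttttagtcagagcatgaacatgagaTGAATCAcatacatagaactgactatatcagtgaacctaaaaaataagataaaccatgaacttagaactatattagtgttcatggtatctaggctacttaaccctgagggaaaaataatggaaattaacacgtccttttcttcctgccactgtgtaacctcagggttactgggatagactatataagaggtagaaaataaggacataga
Prl2c5: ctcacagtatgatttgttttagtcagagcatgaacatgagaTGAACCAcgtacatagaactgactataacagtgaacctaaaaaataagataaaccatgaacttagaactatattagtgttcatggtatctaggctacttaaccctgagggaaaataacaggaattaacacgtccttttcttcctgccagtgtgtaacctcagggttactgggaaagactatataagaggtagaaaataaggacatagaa
The 2 windows were identical at 96.8% of 249 aligned bases, with 8 substitutions and 2 gap bases.

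One of the 8 substitutions, T46C counted from the first base of the window, falls inside the marked letters. TGANTCA was searched on both strands. It occurred once in Prl2c3, starting 209 bases before the start site, and not in Prl2c5. Of 32851 promoter windows of this length, 6.7% hold it. The promoter source held no window for Prl2c2, the other copy high in siSetdb1, so Prl2c2 was not searched. Whether these letters separate the higher copies from Prl2c5 therefore cannot be told, and their part was not tested. AGATAA, a form of the GATA site, was found once in each of the 2 windows at the same place and in 10.0% of all. The core promoter element TATATAA stood 30 bases before the start site in Prl2c3 and 31 in Prl2c5, and was found in 3.0% of all windows. These are matches of letters in a window; binding was not measured.

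Genes listed for AP-1 were partly higher in siSetdb1. The list goes beyond the FOS and JUN proteins and includes Maff. Of 9 tested genes of the list, 4 rose and the other 5 were not called, beside 6.87% of all tested genes that rose. The median log2 difference was 0.33 against -0.02 over all tested genes. Fos rose from 2.82 ± 0.12 to 11.1 ± 1.1 FPKM (limma log2 difference 1.66, adjusted p = 0.000149) and Junb, a JUN relative, from 129.5 ± 12.1 to 209.5 ± 28.6 FPKM (0.69, adjusted p = 0.00929). Jun and Maff, a small MAF protein gene, rose by less (0.47 and 0.39, adjusted p = 0.0414 and 0.0154). Fos and Junb were called in each of 11 alternative settings, among them the removal of each library. Jun lost its call without siNC replicate 2 (adjusted p = 0.051) and without siSetdb1 replicates 1, 2 and 3 (0.127, 0.119 and 0.097), and Maff without the same 4 libraries (0.053, 0.0511, 0.0531 and 0.0544). Jun also lost it with no filter on low values (0.111). With the replicate number as a block, both lost it (0.0665 for Jun and 0.0533 for Maff).

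The receptor to which proliferin binds was lower in siSetdb1. Igf2r had 2.72, 2.30 and 3.03 FPKM in siNC and 1.75, 1.37 and 1.63 FPKM in siSetdb1. Each siSetdb1 library was below each siNC library, as for 21.6% of all tested genes, and the fall from 2.69 ± 0.37 to 1.58 ± 0.19 FPKM was called (limma log2 difference -0.51, SE 0.11, adjusted p = 0.0209). The adjusted p was 0.0543 without siNC replicate 3, and 0.0565, 0.0802 and 0.0555 without siSetdb1 replicates 1, 2 and 3. M6pr, the gene of the smaller, cation-dependent mannose 6-phosphate receptor, had 50.1 ± 1.8 and 50.1 ± 1.7 FPKM (adjusted p = 0.986). Ghr, the growth hormone receptor gene, had 0.521 ± 0.145 and 0.449 ± 0.055 FPKM (adjusted p = 0.705), and the prolactin receptor gene is not analysed here.

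The list of receptor and signalling genes changed in both directions: of 11 tested genes, the 3 receptor genes included, 2 rose, 2 fell (Igf2r and Socs2) and 7 were not called, beside 15.1% called over all genes, and the median log2 difference was -0.07. Socs1, an inhibitor of Janus kinases, rose from 1.16 ± 0.08 to 2.67 ± 0.69 FPKM (limma log2 difference 0.75, adjusted p = 0.013). Ptpn11, the gene of a phosphatase that acts below growth factor receptors, rose from 24.8 ± 0.7 to 30.1 ± 0.3 FPKM (adjusted p = 0.0267). Socs2, a feedback inhibitor of growth hormone signalling, fell from 8.93 ± 0.42 to 6.15 ± 1.29 FPKM (adjusted p = 0.0421). Socs1 kept its call in each setting, whereas the other 2 did not. Ptpn11 had adjusted p between 0.0707 and 0.0984 when siNC replicate 2, siNC replicate 3 or any 1 siSetdb1 library was removed. Socs2 had 0.0746, 0.107 and 0.0693 without siNC replicates 1, 2 and 3, and 0.123 and 0.101 without siSetdb1 replicates 1 and 2. The kinase gene Jak2 (32.8 ± 6.4 and 33.1 ± 2.3 FPKM), the transcription factor genes Stat5a (3.10 ± 0.40 and 2.57 ± 0.28 FPKM) and Stat5b (9.32 ± 0.74 and 9.05 ± 0.69 FPKM), the feedback gene Socs3 (11.7 ± 1.3 and 10.9 ± 0.5 FPKM) and the phosphatase gene Ptpn6 (4.29 ± 0.63 and 4.03 ± 0.18 FPKM) were not called (adjusted p from 0.233 to 0.905). Cish, a target of STAT5, stayed under 0.2 FPKM in both groups and was not tested.

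**Figure D3:**
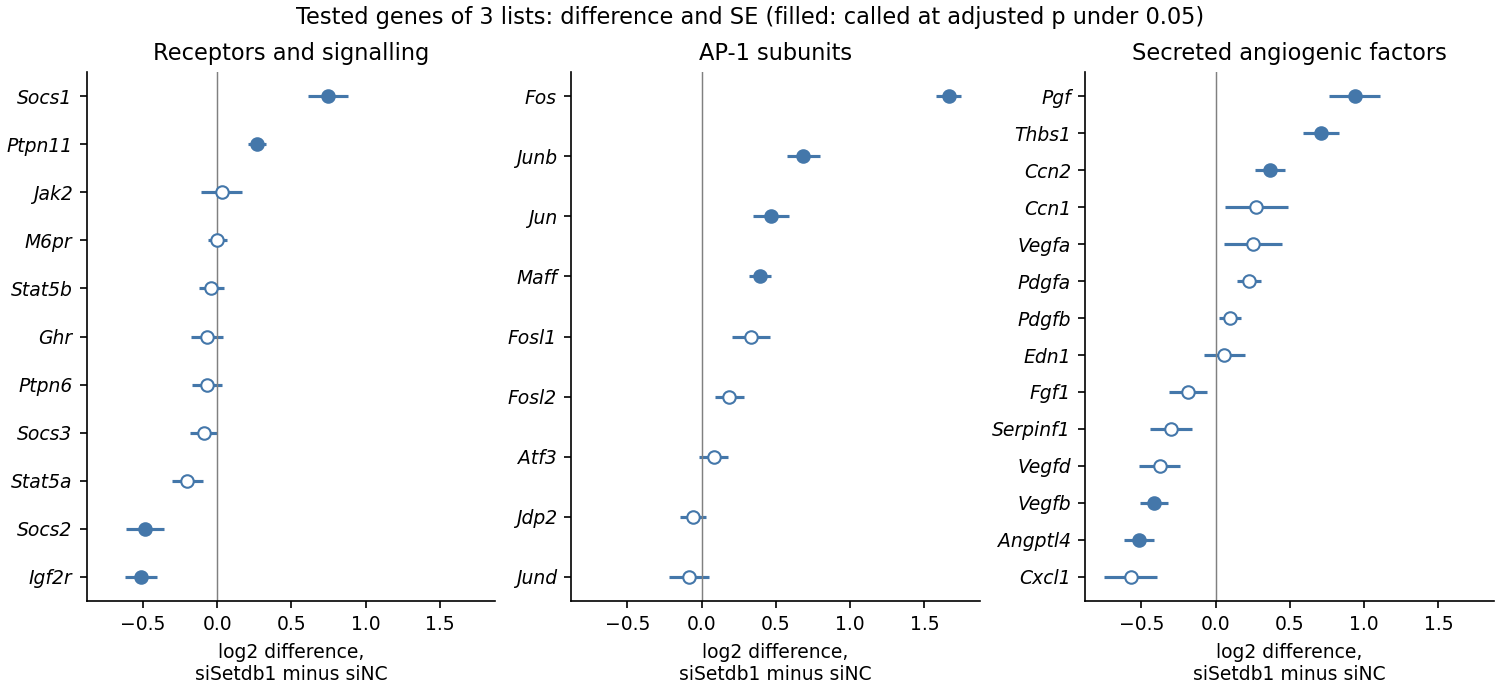
Log2 difference (x axis, siSetdb1 minus siNC on log2(FPKM + 1), bars SE) of the tested genes of 3 lists; filled points have an adjusted p under 0.05. Fos, Pgf and Socs1 lie farthest to the right in their lists, and Igf2r and Socs2 are the called genes on the left of the receptor list.

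Other secreted factors that act on blood vessels changed in both directions. Of 14 tested genes, 3 rose, 2 fell and 9 were not called, again beside 15.1% of all genes, with a median log2 difference of 0.08. Pgf, the placental growth factor gene, rose from 1.91 ± 0.67 to 4.49 ± 0.70 FPKM (limma log2 difference 0.94, adjusted p = 0.0142), and Thbs1, the gene of the angiogenesis inhibitor thrombospondin, from 5.22 ± 0.98 to 9.10 ± 0.71 FPKM (0.71, adjusted p = 0.0113). Angptl4, which inhibits lipoprotein lipase, fell from 8.33 ± 1.04 to 5.51 ± 0.36 FPKM (adjusted p = 0.0156) and Vegfb from 71.8 ± 7.8 to 53.6 ± 3.5 FPKM (adjusted p = 0.0285). Vegfa, the principal vessel growth factor gene, had 19.0 ± 6.1 and 22.1 ± 2.1 FPKM (adjusted p = 0.417), and its groups overlapped. Without siSetdb1 replicates 1 and 2, the adjusted p was 0.0564 and 0.0508 for Pgf, 0.052 and 0.0668 for Angptl4, and 0.11 and 0.104 for Vegfb, which had 0.0776 without siNC replicate 2. Ccn2, the fifth called gene, had 121 ± 16 and 156 ± 4 FPKM (adjusted p = 0.0467). Of the 6 libraries, only siNC replicate 3 could be left out without losing that call (0.0343), and the adjusted p was 0.0504 and 0.0909 without siNC replicates 1 and 2, and 0.145, 0.117 and 0.115 without siSetdb1 replicates 1, 2 and 3. Leaving out siSetdb1 replicate 1 or 2 left 1 called gene in this list.

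Several genes around the copies on chromosome 13 rose in siSetdb1. Within 1 Mb of the outer ends of Prl2c3 and Prl2c2 the table lists 30 other genes, of which 15 were tested. Of these, 5 rose and 10 were not called, beside 6.87% of all tested genes that rose, and the median log2 difference was 0.18. Gm48544 among the 5, and Nid1 among the 10, passed the filter on low values only through siSetdb1 and so had to differ, and nothing is read from the count. The nearest of the 5 was Gm48544, a long noncoding RNA gene at 13034858 to 13038936 on the plus strand, which starts 29.5 kb from the start site of Prl2c2. It had 0.124, 0.0960 and 0.292 FPKM in siNC and 1.16, 1.54 and 1.01 FPKM in siSetdb1. As for the proliferin genes, siNC replicate 3 was the highest control. The limma log2 difference of Gm48544 was 0.93 (SE 0.13). Since it passed the filter only through siSetdb1, its groups could not overlap, and no p is given for it. Of its 2330 windows of 50 bases, 0 occur in a Prl2c transcript.

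Gpr137b, a gene of a lysosomal membrane protein, and its pseudogene Gpr137b-ps lie on the outer sides of the copies. Gpr137b-ps rose from 16.2 ± 0.9 to 27.5 ± 0.6 FPKM and Gpr137b from 20.6 ± 2.0 to 31.6 ± 0.9 FPKM (limma log2 difference 0.73 and 0.60, adjusted p = 0.00138 and 0.00514). They share 28.3% of the windows of Gpr137b, so reads can pass between them. Both were called in each of the 11 settings. Ero1lb, for an oxidase of the endoplasmic reticulum, and B3galnt2, for a glycosyltransferase, rose by 0.35 and 0.37 (adjusted p = 0.0382 and 0.028). Their calls were lost without siNC replicate 2 (0.0723 and 0.078) or siSetdb1 replicate 1, 2 or 3 (0.141, 0.0861 and 0.104 for Ero1lb, and 0.113, 0.0933 and 0.0632 for B3galnt2), and that of Ero1lb also without siNC replicate 3 (0.0592). The only tested gene between Gm48544 and Gpr137b was the processed pseudogene Gm2423, with 16.9 ± 1.4 and 15.9 ± 1.1 FPKM (adjusted p = 0.531). It lies beyond Prl2c5 and was not called.

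**Figure D4:**
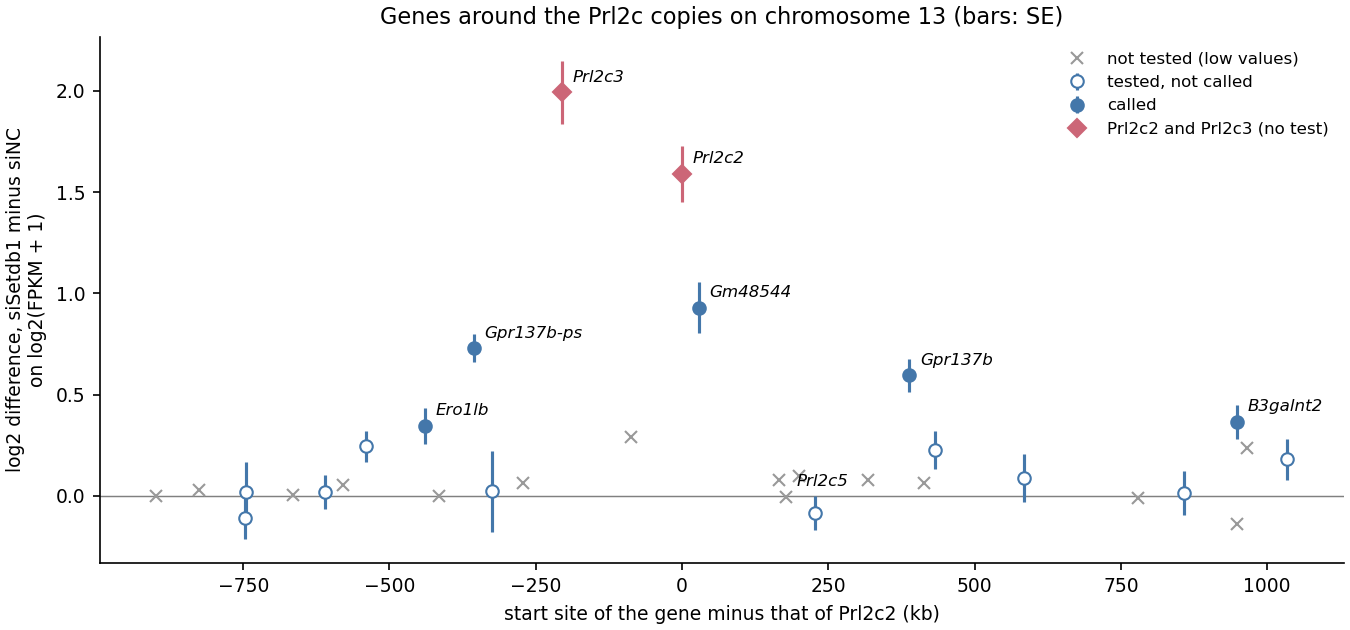
Log2 difference (y axis, siSetdb1 minus siNC on log2(FPKM + 1), bars SE) of each listed gene around the Prl2c copies against the distance of its start site from that of Prl2c2 (x axis, kb). Prl2c3, Prl2c2 and Gm48544 lie highest, Prl2c5 lies at 0, and the called genes Ero1lb, Gpr137b-ps, Gpr137b and B3galnt2 lie between 0.35 and 0.73.

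Markers of cell types in which proliferin is better known were in part at or near 0 and in part expressed. Of 17 trophoblast markers, 10 are in the table, and 5 of these were under 0.1 FPKM in every library. Among them, the trophoblast regulators Cdx2, Elf5 and Gata2 had at most 1 read in any library, and Gcm1 at most 3. Of the 4 that were tested, 1 rose, beside 6.87% of all tested genes. The summed level of the list was 150.6 to 172.4 FPKM in siNC and 212.0 to 229.4 FPKM in siSetdb1, nearly all of it Krt7, a keratin gene of many epithelia, which rose from 154 ± 13 to 218 ± 10 FPKM (limma adjusted p = 0.00827). Tfap2a, a transcription factor gene of trophoblast and other epithelia, had 1.70 ± 0.31 and 2.40 ± 0.11 FPKM, higher in each siSetdb1 library but not called (adjusted p = 0.0701). Plet1 had 1.21 ± 0.15 and 1.38 ± 0.28 FPKM (adjusted p = 0.562). Gata3, a regulator of placental prolactin genes, had 0.665 ± 0.111 and 0.693 ± 0.128 FPKM (adjusted p = 0.9).

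Of 22 placental cathepsin, pregnancy-specific glycoprotein and related genes, 10 are in the table, 9 of them under 0.5 FPKM in every library. The exception was Psg17, a secreted pregnancy-specific glycoprotein gene, with 0.454, 0.739 and 0.804 FPKM in siNC and 2.1, 1.98 and 1.58 FPKM in siSetdb1. Its rise was called (limma log2 difference 0.79, adjusted p = 0.00708), without overlap between the groups. The untested relatives Psg19 and Psg22 had 1, 4 and 3 reads and 0, 3 and 0 reads in siNC, against 21, 11 and 9 and 1, 8 and 7 in siSetdb1. Psg16, also untested and with more reads than either, was not higher: it had 13, 14 and 37 reads in siNC and 15, 18 and 19 in siSetdb1, and the groups overlapped. Reads can be shared within this family as well. The summed level of the list was 0.698 to 1.29 FPKM in siNC and 2.22 to 2.72 FPKM in siSetdb1.

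Of 12 fibroblast markers, 8 are in the table and 4 were under 0.1 FPKM in every library, the collagen gene Col3a1 and the proteoglycan gene Dcn with at most 1 read. Pdgfra, a growth factor receptor gene, and the collagen gene Col1a1 were low and untested but higher in each siSetdb1 library. Pdgfra had 9, 4 and 6 reads in siNC and 20, 29 and 25 in siSetdb1, and Col1a1 had 15, 16 and 19 against 27, 25 and 27. Other untested markers went the other way. Fbn1 was lower in each siSetdb1 library, with 5, 4 and 5 reads in siNC against 2, 0 and 3. Pdgfrb had 1, 2 and 0 reads in siNC and 0 in each siSetdb1 library. Of all tested genes, 17.6% were higher and 21.6% lower in every siSetdb1 library than in every siNC library. The summed level of the list, 539.1 to 604.1 FPKM in siNC and 658.7 to 683.9 FPKM in siSetdb1, was nearly all Vim, an intermediate filament gene that cultured cells of many kinds express (566 ± 33 and 670 ± 13 FPKM, limma adjusted p = 0.0575). Postn fell from 2.97 ± 0.70 to 1.32 ± 0.11 FPKM (adjusted p = 0.0135, and 0.0519 without siSetdb1 replicate 1), 1 of 2 tested genes of the list. The summed level of the hepatocyte markers was 2866 to 3278 FPKM in siNC and 3394 to 3513 FPKM in siSetdb1, most of it from the keratin genes Krt8 and Krt18. The sum therefore says little of the other markers. Over the 11 tested markers the median log2 difference was -0.21, and 3 of them were above 0. Alb had 5.47, 4.05 and 14.3 FPKM in siNC and 1.88, 1.45 and 4.50 FPKM in siSetdb1 (adjusted p = 0.107), highest in replicate 3 of each group. Beside 6.87% of all tested genes that rose and 8.27% that fell, of 11 tested hepatocyte markers 1 rose (Krt18, 0.30, adjusted p = 0.0364) and 2 fell, the transferrin gene Trf from 23.8 ± 4.2 to 8.67 ± 2.88 FPKM (adjusted p = 0.00816) and the transthyretin gene Ttr from 27.5 ± 10.5 to 7.02 ± 4.69 FPKM (0.0247). Trf was called in each setting. Ttr was not without siNC replicates 1 and 3 (0.0664 and 0.0605) or siSetdb1 replicates 1 and 2 (0.0907 and 0.0864), nor Krt18 without any 1 library but siNC replicate 1 (0.0708 to 0.139). The part of any of these marker genes in the proliferin result was not tested.

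The genes whose pattern over the 6 libraries was most like the proliferin sum were sought by Pearson's r on log2(FPKM + 1), as a description. The libraries fall into 2 groups, so that any gene with a clear group difference gives a high r, and 404 of 12844 genes were above 0.95. The 8 highest (r from 0.996 to 0.998) were Misp, Ypel5, Sdcbp2, Gm8493, 1110002E22Rik, Tex2, Efcab14 and Klf5. Of these, Sdcbp2, a syntenin gene, came closest in size, with 0.639, 0.575 and 1.08 FPKM in siNC and 3.77, 4.52 and 5.21 FPKM in siSetdb1. Each of the 8 genes, like the proliferin sum, was highest in replicate 3 of each group, which a ranking by r favours. Misp, for a protein that positions the mitotic spindle, had 0.533 ± 0.052 and 1.1 ± 0.03 FPKM, and Klf5, an epithelial transcription factor gene, 11.6 ± 0.8 and 19.8 ± 1.4 FPKM. Prl2c2 and Prl2c3 correlated with each other at r = 0.98 over the 6 libraries, with reads that may be shared between them.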

How the data were processed

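The deposited table gives 1 value per gene and library. Its header names no unit. The values are FPKM made by the authors before deposit, as read from the values: with GENCODE M21 exon lengths, whole reads (within 0.01) came out for 98.6% of genes. Totals were 16790582 to 17835060 reads per library. Per the submitters' processing notes, HISAT2 2.0.4, Bowtie2 2.2.5, RSEM 1.2.12, DESeq2 1.4.5 and build mm10 were used, with no role or order given. FPKM values of near-identical genes depend on how reads matching several copies were assigned, which is not given in the sources used here.

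Groups follow the sample titles. Tested genes reached 0.5 FPKM in at least 3 libraries. R 4.3.3 with limma 3.58.1 was run on log2(FPKM + 1) (trend and robust prior variance, two-sided, Benjamini-Hochberg adjustment over 12846 genes). The fit was run on simulated reads only to check that it found changes placed in them. The simulation held no outlying library, so it does not show the error rate in these data. Alternatives were a pseudocount of 0.1, no filter, median-ratio scaling, the replicate number as a block, limma-voom on recovered reads, and leaving out each library. Shared windows were counted over all GENCODE M21 transcripts, and promoters came from RefSeq (GRCm38.p6), which matched Prl2c3 and Prl2c5. The genes and lists were chosen with earlier results of these data known. Named genes were the 2 proliferin genes, every listed family member, every tested receptor gene, up to 4 called genes of each other list (and genes near the copies) by size of difference, and the 8 genes most correlated with the proliferin sum. Setdb1 was named as the check of the knockdown. Further genes named (Ccn2, Ero1lb, Vegfa, Alb, Vim, Gata3, Tfap2a, Plet1, Cish, Gm2423, Nid1 and the untested Psg genes and markers) were chosen after their values were seen.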

Additional observations from a re-analysis of the deposited data

How the results depend on the processing

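The proliferin differences kept their sign in every alternative. On the log2 scale the difference of Prl2c2, Prl2c3 and their sum was 1.59, 1.99 and 2.36 with a pseudocount of 1, 2.91, 3.80 and 3.55 with a pseudocount of 0.1, and 3.18, 4.33 and 3.82 on recovered reads (limma-voom; for the sum, log2 of scaled reads). Leaving out 1 library gave 1.5 to 1.69, 1.84 to 2.1 and 2.25 to 2.53. Over all genes 1945 were called, against 890 with no filter, 1015 with the replicate block and 683 to 2176 without 1 library. Of the receptor list 4 were called, against 1 with no filter, 2 with the block and 1 to 3 without 1 library. Of the AP-1 list 4 were called, against 2 with the block and 2 to 4 without 1 library. Of the secreted factors 5 were called, against 2 with no filter, 3 with the block and 1 to 6 without 1 library. Of the genes near the copies 5 were called, Gm48544 among them, against 3 with the block and 3 to 5 without 1 library. Deviations of same-numbered libraries correlated at -0.16, 0.17 and -0.17, which showed no pairing by number. So few values, from deviations within groups of 3, cannot exclude one. Across the 24 called genes of the lists and 11 alternatives each, 190 of 264 values stayed called, 74 did not and 0 changed sign. The 190 include 11 of Gm48544, which passed the filter only through siSetdb1, and nothing is read from those. The cause of the lost calls was not tested. Calls were also lost in settings other than the removal of a library. With no filter these were Angptl4, B3galnt2, Ccn2, Ero1lb, Igf2r, Jun, Krt18, Ptpn11, Socs2, Ttr and Vegfb. With the replicate block they were B3galnt2, Ccn2, Ero1lb, Jun, Krt18, Maff, Ptpn11, Socs2 and Vegfb, and with median-ratio scaling Socs2. With 14 to 19 reads per copy in siNC, the size of the fold changes is limited by depth.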
